A study of Mus musculus with 39 samples.

Results

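The Ugt1a cluster, Ugdh and the epoxide hydrolases Ephx1 and Ephx2 were followed in mouse lung across the 8 diet and time groups of the study. The members were every probe set whose gene symbols include one starting with Ugt1a, and the brightest probe set of each of the other genes. A probe set is a set of short DNA probes that together report 1 transcript or a group of them. This gave 6 of the 45101 probe sets on the array: 3 for Ugt1a (1424783_a_at, 1426260_a_at and 1426261_s_at) and 1 each for Ugdh (1416308_at), Ephx1 (1422438_at) and Ephx2 (1448499_a_at). They stand for 11 of the 19324 genes named on the array. All 6 passed the filter on dim probe sets, so that every member was tested among 13023 features.

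Lungs came from 39 female Crlj:CD1(ICR) mice, an outbred strain, with 1 array per animal. Animals ate powdered diet without a test compound (the controls), with permethrin at 5000 or 10000 ppm, or with isoniazid at 2500 ppm, for 7 or 14 days. Permethrin belongs to the pyrethroid insecticides. Isoniazid, a drug against tuberculosis, served as positive control for tumour induction per the labels. Each group held 5 animals, except permethrin 10000 ppm at 14 days with 4, and the animals were 11 weeks old in the 7-day groups and 12 weeks old in the 14-day groups. No genetic change is named for any group. Whole lung was measured, so a change in the number of cells of a type cannot be told apart from a change in RNA per cell.

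UDP-glucuronosyltransferases of the UGT1A family attach glucuronic acid to hydroxylated drugs, hormones and bilirubin, which makes them water soluble and ready for export. The sugar donor, UDP-glucuronate, is made from UDP-glucose by UDP-glucose dehydrogenase, the product of Ugdh. Ephx1 encodes the microsomal epoxide hydrolase, which opens reactive epoxides that cytochrome P450 enzymes form from foreign compounds. Ephx2 encodes the soluble epoxide hydrolase, which turns fatty acid epoxides into diols. The Ugt1a genes of the mouse form 1 locus in which alternative first exons are joined to a shared set of later exons.

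Each of the 3 Ugt1a probe sets carries the same 8 symbols (Ugt1a1, Ugt1a2, Ugt1a5, Ugt1a6a, Ugt1a6b, Ugt1a7c, Ugt1a9 and Ugt1a10). In RefSeq, 7 of these 8 genes end at one shared base and 1 ends elsewhere. Which of the locus's transcripts each probe set measures is not settled by these symbols, so the values below cannot be assigned to one of its genes.

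The start regions of 9 of the 11 member genes were in the RefSeq promoter table (build GRCm38.p6). The 250 bases before the start are shown for Ugt1a1 (chr1:88211709-88211958, + strand) and Ugt1a6a (chr1:88134559-88134808, + strand), 2 of the alternative starts of the locus. Those of Ephx1 (chr1:181017570-181017819, - strand), whose signal moved with Ugt1a, and of Ugdh (chr5:65435843-65436092, - strand), whose signal did not pass the test, follow. Capitals mark matches, on either strand, to 5 letter patterns: TGACNNNGC (the core of the antioxidant response element), GCGTG (the core bound by the aryl hydrocarbon receptor), GTTAAT (part of the HNF1 site), TATAAA (the TATA box) and AGGTCA (part of many nuclear receptor sites). Each sequence reads 5′ to 3′ on the strand of its gene.
Ugt1a1: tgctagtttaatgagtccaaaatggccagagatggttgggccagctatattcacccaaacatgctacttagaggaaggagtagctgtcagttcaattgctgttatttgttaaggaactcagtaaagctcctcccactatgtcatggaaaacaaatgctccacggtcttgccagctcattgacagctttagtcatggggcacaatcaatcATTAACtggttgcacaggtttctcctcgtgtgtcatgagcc
Ugt1a6a: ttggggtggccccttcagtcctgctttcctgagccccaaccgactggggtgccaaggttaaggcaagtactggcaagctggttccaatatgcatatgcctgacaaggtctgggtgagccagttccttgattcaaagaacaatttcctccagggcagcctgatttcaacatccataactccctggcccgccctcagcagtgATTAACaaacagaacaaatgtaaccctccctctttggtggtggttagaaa
Ephx1: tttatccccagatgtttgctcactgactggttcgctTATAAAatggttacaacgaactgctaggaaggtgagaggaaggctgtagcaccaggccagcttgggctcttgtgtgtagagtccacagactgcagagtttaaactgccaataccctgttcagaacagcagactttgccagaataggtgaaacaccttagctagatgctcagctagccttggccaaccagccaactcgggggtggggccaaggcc
Ugdh: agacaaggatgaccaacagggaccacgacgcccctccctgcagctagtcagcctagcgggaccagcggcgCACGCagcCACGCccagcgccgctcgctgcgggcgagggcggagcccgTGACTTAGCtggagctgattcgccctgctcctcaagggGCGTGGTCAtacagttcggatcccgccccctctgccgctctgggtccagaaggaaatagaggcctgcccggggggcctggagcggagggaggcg

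TGACNNNGC was found in the Ugdh window alone among the 9, with 2 matches, from -132 to -124 on the gene's strand and from -94 to -86 on the other strand. Positions count back from the start of transcription. The second match overlaps a GCGTG at -94 to -90. Of the 32851 windows in the table, 10.2% hold TGACNNNGC. GTTAAT was found in 4 of the 7 Ugt1a windows (Ugt1a1 at -41 to -36, Ugt1a6a at -50 to -45, Ugt1a9 and Ugt1a10) and in 6.43% of all windows. The Ugt1a9 and Ugt1a10 windows read nearly alike downstream of a shared match, so the 4 windows are not independent. GCGTG was found in Ugdh and Ugt1a5 (28.2% of all windows), and AGGTCA in Ugt1a9 and Ugt1a7c (14.0%). TATAAA was found in Ephx1 (12.4%), at -214 to -209, toward the far end of the window from the start. These are matches of letters in 1 window per start and show no binding.

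Ugt1a and Ephx1 rose in lung under permethrin at both doses and both times, by 1.43 to 1.96-fold against the control of the same time. Ugdh and Ephx2 did not pass the test in any of the 15 comparisons. Under isoniazid 0 of the 6 probe sets passed in limma at either time, against 0.0461% of all features at 7 days and 0.0307% at 14 days. Among the 6, 4 passed as higher and 0 as lower in each of the 4 comparisons of a permethrin group with its control. Of all features, 0.123% passed as higher for 5000 ppm and 0.253% for 10000 ppm at 7 days, and 0.161% and 0.23% at 14 days. A feature passed when its limma p, adjusted by the Benjamini-Hochberg method over all 13023 features, was below 0.05.

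**Figure D1:**
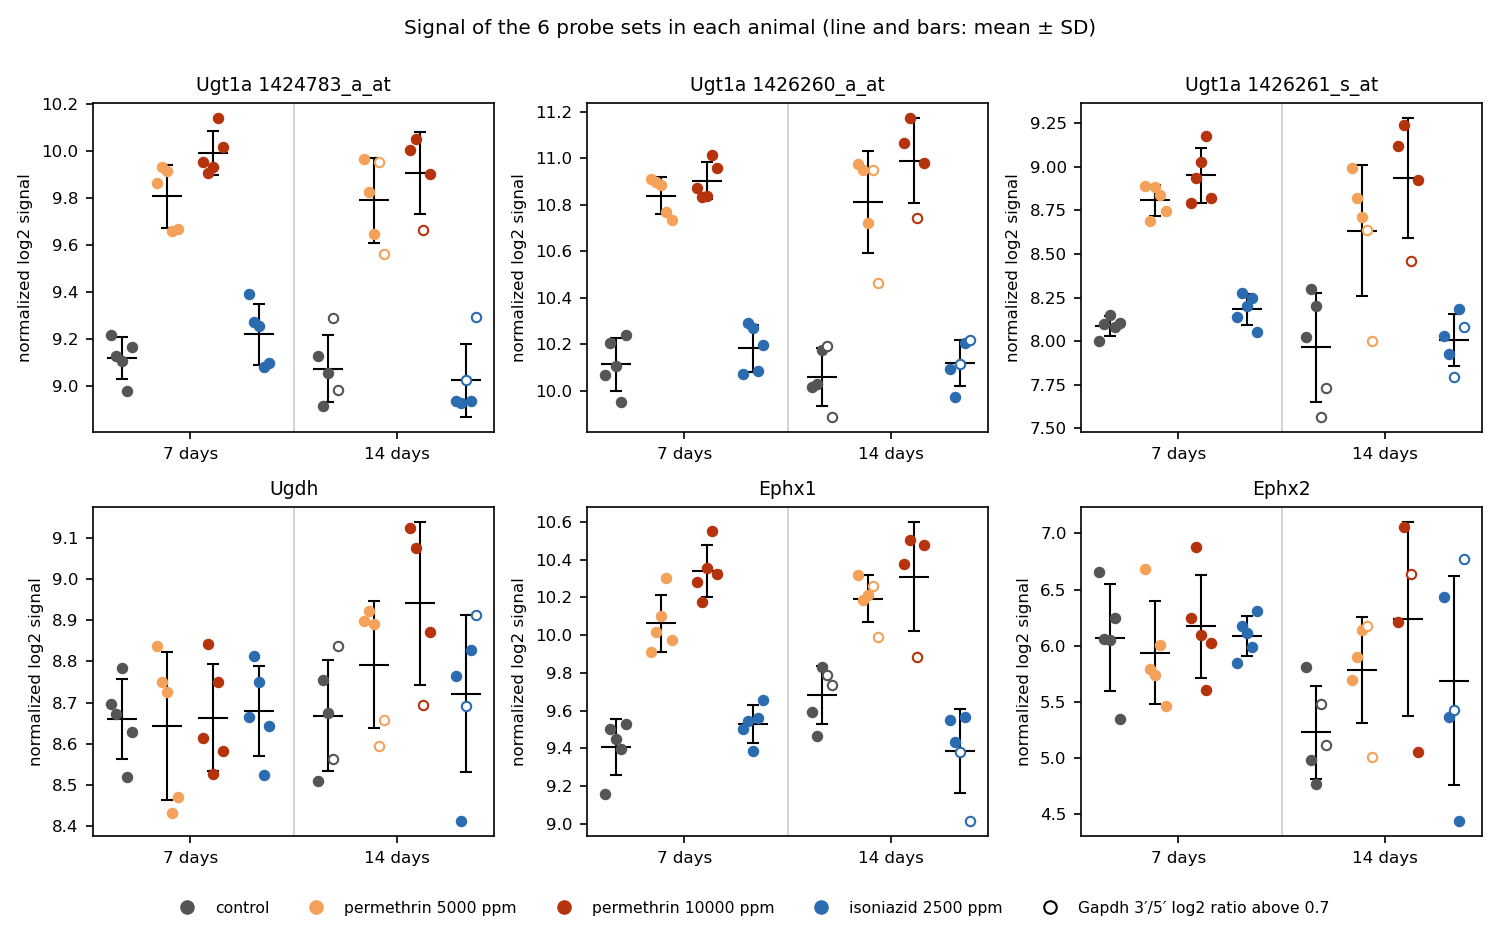
Normalized log2 signal (vertical axis) of each probe set in each of the 39 animals, by time (horizontal axis) and diet (colour). Horizontal lines and bars give the mean ± SD of a group, open circles mark the 7 arrays with a Gapdh 3′/5′ log2 ratio above 0.7, and the vertical scale differs between panels. In the panels of Ephx1 and of Ugt1a 1424783_a_at and 1426260_a_at every permethrin animal lies above every control and isoniazid animal.

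The Ugt1a probe set of highest signal, 1426260_a_at, is given first. All levels are log2 of the quantile-normalized signal. In the controls at 7 days it read 10.07, 10.20, 10.11, 9.95 and 10.24. In the permethrin 5000 ppm group it read 10.91, 10.90, 10.88, 10.77 and 10.74, and at 10000 ppm 10.87, 10.83, 10.84, 11.01 and 10.96. In the isoniazid group it read 10.07, 10.29, 10.27, 10.08 and 10.19. Both permethrin groups lay wholly above the controls, whereas the isoniazid group overlapped the controls, with 2 of its 5 animals above every control. Among all features, 0.422% had every animal at 5000 ppm above every control, and 0.891% had this at 10000 ppm. The difference from the controls was 0.72 ± 0.09 (log2, SE) at 5000 ppm, a 1.65-fold level with an adjusted p of 3.12e-06. It was 0.79 ± 0.09 at 10000 ppm, 1.73-fold, with an adjusted p of 1.25e-07.

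At 14 days the controls read 10.01, 10.03, 10.17, 10.19 and 9.89 for 1426260_a_at. The 5000 ppm group read 10.97, 10.95, 10.72, 10.95 and 10.46, and the 4 animals at 10000 ppm read 11.07, 11.17, 10.74 and 10.98. The isoniazid group read 10.09, 9.97, 10.12, 10.20 and 10.22. Again the permethrin and control groups did not overlap, as was the case for 0.683% of features at 5000 ppm and 1.23% at 10000 ppm. The rise was 0.75 ± 0.09 (1.68-fold, adjusted p = 2.11e-06) at 5000 ppm and 0.93 ± 0.09 (1.91-fold, adjusted p = 1.92e-08) at 10000 ppm.

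The other Ugt1a probe sets rose by similar amounts. For 1424783_a_at the 7-day means ± SD were 9.12 ± 0.09 in controls (n = 5), 9.81 ± 0.13 at 5000 ppm (n = 5) and 9.99 ± 0.09 at 10000 ppm (n = 5). Its 14-day means were 9.07 ± 0.14 in controls (n = 5), 9.79 ± 0.18 (n = 5) and 9.90 ± 0.17 (n = 4). The corresponding log2 rises were 0.69 ± 0.09 and 0.87 ± 0.09 at 7 days, and 0.72 ± 0.09 and 0.83 ± 0.10 at 14 days (SE), with adjusted p from 7.49e-08 to 2.29e-05. No permethrin animal overlapped the controls of its time in this probe set.

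For 1426261_s_at the 7-day means ± SD were 8.09 ± 0.06 in controls, 8.81 ± 0.09 at 5000 ppm and 8.95 ± 0.16 at 10000 ppm (n = 5 each). The log2 rises were 0.72 ± 0.14 (adjusted p = 0.0087) and 0.87 ± 0.14 (adjusted p = 0.000292) by limma. At 14 days its spread was wider. The controls read 8.02, 8.30, 8.20, 7.56 and 7.73, the 5000 ppm group 8.99, 8.82, 8.71, 8.64 and 8.002, and the 10000 ppm group 9.12, 9.24, 8.46 and 8.93. The lowest animal at 5000 ppm, replicate 5, lay inside the control range, and the other permethrin animals lay above it. The rise was 0.67 ± 0.14 (adjusted p = 0.0238) at 5000 ppm and 0.97 ± 0.15 (adjusted p = 0.000142) at 10000 ppm.

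The low 14-day values of 1426261_s_at fell on arrays with a high ratio of 3′ to 5′ signal for Gapdh, a control transcript whose ratio rises when RNA is shortened. Of the 39 arrays 7 had a log2 ratio above 0.7, all at 14 days: 2 controls, 2 at 5000 ppm, 1 at 10000 ppm and 2 with isoniazid. On them the probe set averaged 7.65 against 8.17 on the other 14-day control arrays, 8.32 against 8.84 at 5000 ppm, and 8.46 against 9.10 at 10000 ppm. With isoniazid it averaged 7.94 against 8.05. For 1426260_a_at the means on these and the other 14-day arrays were 10.04 and 10.07 in controls, 10.71 and 10.88 at 5000 ppm, 10.74 and 11.07 at 10000 ppm, and 10.17 and 10.09 with isoniazid. For Ephx1 they were 9.76 and 9.63 in controls, and 9.88 and 10.45 at 10000 ppm. At 10000 ppm these arrays are 1 animal. Without the 7 arrays the number of probe sets that passed was the same in all 15 comparisons.

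Ephx1 rose beside Ugt1a. In the controls it read 9.16, 9.50, 9.45, 9.40 and 9.53 at 7 days. At 5000 ppm it read 9.91, 10.02, 10.10, 10.30 and 9.98, and at 10000 ppm 10.28, 10.18, 10.36, 10.55 and 10.33. The isoniazid group read 9.50, 9.55, 9.38, 9.56 and 9.66. Every permethrin animal was above every control, and the isoniazid group overlapped the controls. The rise was 0.65 ± 0.11 (log2, SE; 1.57-fold, adjusted p = 0.000828) at 5000 ppm and 0.93 ± 0.11 (1.91-fold, adjusted p = 4.94e-07) at 10000 ppm.

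At 14 days the Ephx1 controls read 9.59, 9.46, 9.83, 9.79 and 9.74. The 5000 ppm group read 10.32, 10.19, 10.22, 10.26 and 9.99, and the 10000 ppm group 10.38, 10.50, 9.88 and 10.48. The isoniazid group read 9.55, 9.43, 9.38, 9.56 and 9.01. The permethrin groups again stood wholly above the controls, and the isoniazid animals were all below the control mean. The rise was 0.51 ± 0.11 (1.43-fold, adjusted p = 0.0238) at 5000 ppm and 0.63 ± 0.11 (1.55-fold, adjusted p = 0.00205) at 10000 ppm. The isoniazid difference of -0.29 ± 0.11 did not pass (unadjusted p = 0.00952, adjusted p = 0.731 in limma), and it was -0.11 without the 7 arrays of high Gapdh ratio.

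Of the calls above, those at 5000 ppm and 14 days were the least stable. There 4 probe sets passed, but 2 passed when control replicate 5 or permethrin replicate 1, 2, 3 or 4 was left out, because 1426261_s_at and Ephx1 dropped out. With each array centred on its median in place of quantile normalization, 0 of the 6 passed at 5000 ppm at either time, while the differences kept their sign. At 10000 ppm, median centring also left 1426261_s_at at 7 days (0.87, adjusted p = 0.12) and Ephx1 at 14 days (0.75, adjusted p = 0.0895) short of the threshold. With only the compared groups in the model, 2 passed at 14 days at either dose.

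Across both times, 3 of the 6 probe sets had all 19 permethrin animals above all 20 others, as did 0.0691% of all features. The highest of the 20 control and isoniazid animals read 9.83 for Ephx1, and the lowest of the 19 permethrin animals read 9.88. For 1424783_a_at these values were 9.39 and 9.56, and for 1426260_a_at 10.29 and 10.46. For 1426261_s_at 1 of the 19 permethrin animals was not above all others.

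Ordered by group mean, Ephx1 went from 9.39 (isoniazid, 14 days) through 9.41 (control, 7 days), 9.53 (isoniazid, 7 days) and 9.68 (control, 14 days) to the permethrin groups. Those read 10.06 (5000 ppm, 7 days), 10.19 (5000 ppm, 14 days), 10.31 (10000 ppm, 14 days) and 10.34 (10000 ppm, 7 days). Neighbours in this order overlapped in their animals, except the 14-day controls and the 5000 ppm group at 7 days. For 1426260_a_at the order was 10.06 (control, 14 days), 10.11 (control, 7 days), 10.12 and 10.18 (isoniazid at 14 and 7 days), then 10.81 and 10.84 (5000 ppm at 14 and 7 days), and 10.90 and 10.99 (10000 ppm at 7 and 14 days). Here the only neighbours that did not overlap were the 7-day isoniazid group and the 14-day group at 5000 ppm.

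**Figure D2:**
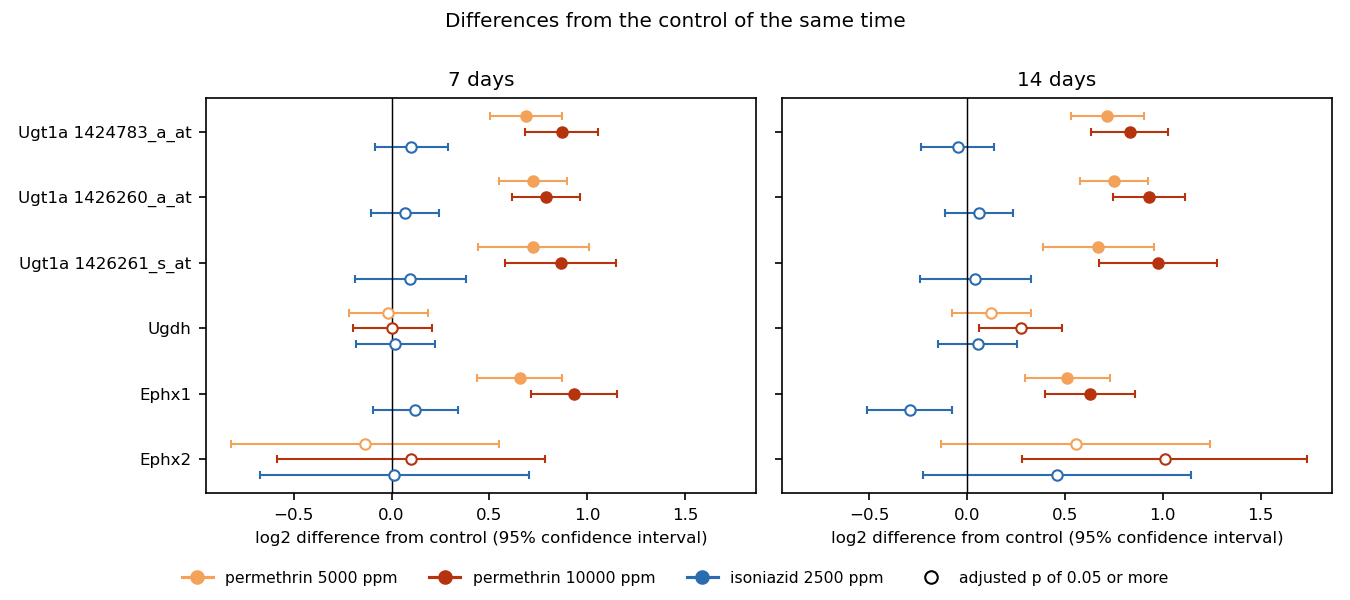
Log2 difference from the control of the same time (horizontal axis) for the 6 probe sets, with 95% confidence intervals, at 7 days (left) and 14 days (right). Filled points have an adjusted p below 0.05: these are the 3 Ugt1a probe sets and Ephx1 under both permethrin doses.

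Doubling of the dietary concentration brought small further rises that did not pass the test. Averaged over both times, 10000 ppm exceeded 5000 ppm by 0.20 (log2, 95% confidence interval 0.04 to 0.36) for Ephx1 and by 0.15 (0.01 to 0.28), 0.12 (-0.01 to 0.25) and 0.22 (0.02 to 0.43) for the Ugt1a probe sets 1424783_a_at, 1426260_a_at and 1426261_s_at. Unadjusted p was below 0.05 for 3 of the 6 probe sets, and the adjusted p was 0.999 for each by limma. Of all features, 0.00768% passed as higher in this dose comparison.

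Averaged over both times, the Ugt1a probe sets exceeded the controls at 10000 ppm by 0.85 ± 0.07, 0.86 ± 0.06 and 0.92 ± 0.10 (log2, SE), and Ephx1 by 0.78 ± 0.08. At 5000 ppm the values were 0.70 ± 0.06, 0.74 ± 0.06, 0.70 ± 0.10 and 0.58 ± 0.08. Each of these 8 values passed, where 0.491% of features passed as higher at 10000 ppm and 0.253% at 5000 ppm. The same 4 probe sets were higher at 10000 ppm than with isoniazid, by 0.79 to 0.87 (adjusted p from 1.55e-11 to 4.46e-07), against 0.323% of all features. The change of a treatment effect from 7 to 14 days passed for 0 of the 6 probe sets under any diet by limma, and for 0% of all features. Its unadjusted p was below 0.05 for 1 probe set, Ephx1 with isoniazid, at -0.42 (-0.72 to -0.11, adjusted p = 1). Part of this lay in the controls, where Ephx1 was higher at 14 than at 7 days by 0.27 (0.06 to 0.49). That control difference did not pass (adjusted p = 0.24 by limma). The isoniazid means of Ephx1 were 9.53 at 7 days and 9.39 at 14 days.

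Under isoniazid the Ugt1a intervals were narrow enough to bound the change. At 7 days the differences were 0.10 (-0.09 to 0.29), 0.07 (-0.10 to 0.24) and 0.10 (-0.19 to 0.38) for 1424783_a_at, 1426260_a_at and 1426261_s_at. At 14 days they were -0.05 (-0.23 to 0.14), 0.06 (-0.11 to 0.24) and 0.04 (-0.24 to 0.32). The upper bounds lay below the rises measured at 5000 ppm at the same time for each of the 3. The unadjusted p was below 0.05 for 0 of the 6 members at 7 days and for 1, Ephx1, at 14 days.

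Ugdh, which supplies the sugar donor of the UGT1A enzymes, did not pass the test in any comparison. Its control animals ranged from 8.52 to 8.78 at 7 days and from 8.51 to 8.84 at 14 days. At 7 days the permethrin differences were -0.02 (-0.22 to 0.18) at 5000 ppm and 0.00 (-0.20 to 0.20) at 10000 ppm, so a rise of the size seen for Ugt1a lay outside the interval. At 14 days and 10000 ppm the 4 animals read 9.12, 9.08, 8.69 and 8.87. All 4 were above the control mean of 8.67, but the groups overlapped, and the difference of 0.27 (0.06 to 0.49) had an unadjusted p of 0.0138 and an adjusted p of 0.622 in limma. At 5000 ppm the difference was 0.12 (-0.08 to 0.33), and with isoniazid it was 0.02 (-0.18 to 0.22) at 7 days and 0.05 (-0.15 to 0.26) at 14 days.

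Ephx2 was the most variable member. At 14 days the controls read 5.81, 4.98, 4.77, 5.48 and 5.11. The 5000 ppm group read 5.69, 5.90, 6.14, 6.17 and 5.01, and the 10000 ppm group 6.21, 7.06, 6.63 and 5.06. The isoniazid group read 6.44, 5.37, 5.43, 4.44 and 6.77, so each treated group overlapped the controls. The differences were 0.55 ± 0.34, 1.01 ± 0.36 and 0.46 ± 0.34 (log2, SE) at 14 days, with adjusted p of 0.968, 0.551 and 0.927 by limma. At 7 days they were -0.14 ± 0.34, 0.10 ± 0.34 and 0.01 ± 0.34. Between 14-day and 7-day controls it differed by -0.84 ± 0.34 (adjusted p = 0.251), and 0 of the 6 probe sets passed in this comparison by limma (2 at an unadjusted p below 0.05), against 0.115% of all features.

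Ephx2 moved with genes listed as markers of brown fat, a tissue that lies beside the thoracic organs. The brown fat signal of an animal is the mean log2 signal of 8 marker genes, among them Cidea, Cox8b and Adipoq, and 9 of the 12 listed markers were on the array. Over the 39 animals Ephx2 followed it with Pearson's r of 0.924 and Spearman's rho of 0.917 (permutation p = 1e-05 for each, the smallest that 100000 resamples give, adjusted p = 9e-05 over 18 relations). Without the 2 animals farthest from the median brown fat signal r was 0.922. It was 0.873 within 7 days, 0.929 within 14 days and 0.907 over deviations from group means. Ephx2 also followed a cardiac muscle signal (r = 0.766, rho = 0.75, adjusted p = 9e-05; r = 0.726 without 2 animals, 0.654 at 7 days and 0.762 at 14 days). The other 16 relations of the 6 probe sets with brown fat, cardiac and hepatocyte signals had adjusted p of 0.31 or more. Ucp1 is not among the 8 genes of the brown fat signal. Whether that signal came from brown fat, other fat or muscle was not tested, nor was its relation to the cardiac signal.

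The 14-day controls had the lowest mean brown fat signal, 4.88 ± 0.93 (SD), with a range from 3.83 to 5.87. It was 5.96 ± 0.38 at 5000 ppm (5.41 to 6.42), 6.39 ± 1.50 at 10000 ppm (4.42 to 8.05) and 5.88 ± 1.08 with isoniazid (4.41 to 7.02). The exact permutation p of the differences from control was 0.0635, 0.0952 and 0.19, and none passed after adjustment over 24 tests (0.254 to 0.38). At 7 days the 4 groups averaged 6.17 to 6.50. Of the 8 brown fat genes tested, 0 passed in any comparison with control by limma, with 0 to 4 at an unadjusted p below 0.05 in a comparison at 1 time. Ucp1, the gene that defines brown fat, missed the filter on dim probe sets and ranged from -1.86 to 8.76 in log2 signal. With the brown fat signal as a covariate, an alternative added after seeing the data, the 14-day differences of Ephx2 were -0.12 at 5000 ppm, 0.07 at 10000 ppm and -0.16 with isoniazid. The difference between 14-day and 7-day controls was then 0.01. The brown fat signal was itself lower on average in the 14-day controls. The fit therefore cannot tell fat in a sample from an effect of diet or time on both signals, and neither was tested.

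**Figure D3:**
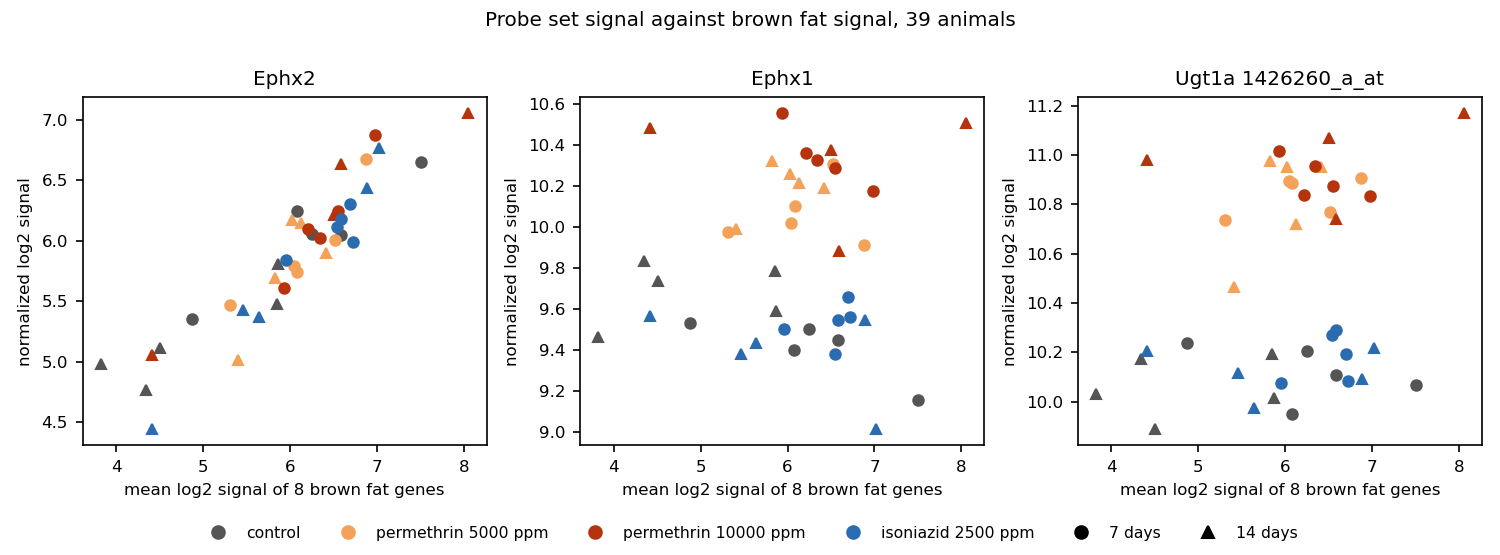
Normalized log2 signal of Ephx2, Ephx1 and Ugt1a 1426260_a_at (vertical axes) against the mean log2 signal of 8 brown fat genes (horizontal axis), 1 point per animal, 39 animals. Ephx2 rises along the axis with r of 0.924, while Ephx1 and Ugt1a split by permethrin along the whole axis.

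The rises of Ugt1a and Ephx1 were also fitted with the signals of other tissues as covariates. With the brown fat signal, the rise at 10000 ppm over both times was 0.81, 0.84 and 0.92 for the Ugt1a probe sets and 0.82 for Ephx1, and each passed. At 5000 ppm and 14 days 1426261_s_at no longer passed with it (0.67, adjusted p = 0.0694 by limma). With the hepatocyte and cardiac signals as covariates, the rise at 10000 ppm over both times was 0.83, 0.85 and 0.88 for the Ugt1a probe sets and 0.76 for Ephx1, and each passed. At 5000 ppm and 14 days 2 of the 6 passed with these covariates, as 1426261_s_at (0.62) and Ephx1 (0.50) did not.

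The cardiac signal, the mean of 15 marker genes, was lowest in the 14-day controls, as the brown fat signal was. It averaged 7.08 ± 0.73 (SD) there, against 8.12 at 5000 ppm, 8.13 at 10000 ppm and 8.21 with isoniazid. The exact permutation p was 0.0317, 0.175 and 0.0556, and the p adjusted over 24 tests 0.254, 0.38 and 0.254. In the same 3 comparisons 14, 12 and 15 of the 15 genes had an unadjusted p below 0.05, and 0 passed by limma. At 7 days the 4 groups averaged 8.39 to 8.54. Hepatocyte signal averaged 5.94 and 5.60 in the permethrin groups and 5.65 with isoniazid at 7 days, against 6.48 in controls. At 14 days the permethrin groups read 5.65 and 6.12 against 5.79 in controls. The isoniazid group at 14 days read 4.76 (exact permutation p = 0.0159, adjusted p = 0.254), and 8 of its 15 hepatocyte genes had an unadjusted p below 0.05, with 0 passing by limma. The part of these signals in the isoniazid values of the members was not tested beyond the covariate fits.

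Of the lung markers, Sftpc of alveolar type 2 cells ranged from 12.46 to 12.99 over the 39 arrays and Scgb1a1 of club cells from 13.05 to 13.18. Scgb3a1, also of club cells, ranged from 5.64 to 12.46, and Dnah5 of ciliated cells from 1.73 to 4.96. Club cell signal averaged 10.50 in the 14-day controls, 10.84 at 5000 ppm, 10.78 at 10000 ppm and 10.82 with isoniazid at 14 days. The exact permutation p was 0.0397, 0.175 and 0.0556, and the p adjusted over 24 tests 0.254, 0.38 and 0.254. Of the 16 club cell markers, 1 passed, Aldh1a1, by 0.28 at 10000 ppm and 7 days. It also passed at 14 days, by 0.26 at 5000 ppm and 0.31 at 10000 ppm. Of all features, 0.253%, 0.161% and 0.23% passed as higher in these comparisons, in that order. In the same comparisons 2, 5 and 3 of the 16 markers had an unadjusted p below 0.05 by limma. The part of Aldh1a1 in the rise of the members was not tested.

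Genes most like Ephx1 and the brightest Ugt1a probe set were found by the root mean square difference in log2 signal over the 39 animals, each gene taken relative to the controls of its time. For Ephx1 the nearest were Cbr1 (0.222), Gstm1 (0.223) and the 3 Ugt1a probe sets (0.228, 0.243 and 0.268). For 1426260_a_at they were the other Ugt1a probe sets (0.109 and 0.165), Cbr1 (0.207), Gstm1 (0.220) and Ephx1 (0.243). The median over all features was 0.59 from Ephx1. Cbr1 encodes a carbonyl reductase and Gstm1 a glutathione S-transferase. Cbr1 rose by 0.76 and 0.78 (log2) at 10000 ppm at 7 and 14 days, and by 0.55 at 5000 ppm and 14 days. Because it was picked for its likeness on these same arrays, a similar rise follows from the choice. At 5000 ppm and 7 days it differed by 0.46 ± 0.11 and did not pass (adjusted p = 0.112 by limma).

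Genes that supply or use the sugar donor did not pass in a comparison with control at 1 time. The list of sugar supply and use held 18 tested genes, from hexokinases through Ugp2, which makes UDP-glucose, to Gusb, the glucuronidase that removes the sugar again. Of these, 0 passed in any of the 6 comparisons with control at 1 time by limma, with 0 to 3 at an unadjusted p below 0.05 in a comparison. The single values ran from -1.81 with isoniazid at 14 days (adjusted p = 0.284) to 0.59 at 5000 ppm and 7 days, both for Has1, a hyaluronan synthase that uses UDP-glucuronate. The list medians ran from -0.04 to 0.05, and the medians over all features from -0.01 to 0.02. Ugp2 differed by 0.15 and Slc35d1, a carrier of UDP-glucuronate into the endoplasmic reticulum, by 0.19 at 10000 ppm over both times, without passing. With isoniazid over both times 0.392% of all features passed, and 0 of the 6 members did, none at an unadjusted p below 0.05. With isoniazid over both times 4 of the 18 genes had an unadjusted p below 0.05, Has1 among them at -0.70 (adjusted p = 0.502 by limma). Hk2, a hexokinase, was the 1 gene of the list that passed there, at 0.44 ± 0.10 (adjusted p = 0.0457), where 0.223% of features passed as higher.

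Of 11 UGT genes outside the Ugt1a locus on the array, Ugt2b36 and Ugt8a passed the filter. Neither passed the test in the comparisons with control, and at an unadjusted p below 0.05 there was 1 value, at 5000 ppm and 7 days. The other 9, Ugt2a3, Ugt2b1, Ugt2b5, Ugt2b34, Ugt2b35, Ugt2b37, Ugt2b38, Ugt3a1 and Ugt3a2, averaged from -1.49 to 2.91 in log2 signal, below the filter at 3.43.

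Of 7 tested transporters that can carry glucuronides out of cells, Abcc3 rose, and it did so at 10000 ppm at both times: by 0.71 ± 0.11 (adjusted p = 0.000109) at 7 days and by 0.66 ± 0.12 (adjusted p = 0.00149) at 14 days. At 5000 ppm and 14 days it differed by 0.39 ± 0.11 (adjusted p = 0.343). Abcc4 and Abcg2 differed by 0.19 and 0.01 at 10000 ppm over both times and did not pass.

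Genes that form epoxides or dispose of them by other routes changed in part. Of 17 tested, 1 passed as higher at 5000 ppm at each time, the glutathione S-transferase gene Gstm1 (0.43 ± 0.09 and 0.49 ± 0.09). At 10000 ppm 3 passed as higher at each time, the glutathione transferase genes Gstm1, Gsta4 and Mgst1, by 0.66, 0.71 and 0.23 at 7 days and by 0.78, 0.67 and 0.26 at 14 days. Cyp1a1, a cytochrome P450 that oxidizes aromatic hydrocarbons, fell by 2.06 ± 0.39 at 10000 ppm and 14 days (adjusted p = 0.00415), where 0.00768% of features passed as lower, and rose with isoniazid by 2.16 ± 0.37 at 7 days and 3.07 ± 0.37 at 14 days, where 0.0307% and 0.0154% of features passed as higher. The other epoxide hydrolase genes Ephx3 and Ephx4 differed by -0.05 and -0.14 at 10000 ppm over both times and did not pass. Cyp2f2, the abundant P450 of club cells, differed by 0.06.

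**Figure D4:**
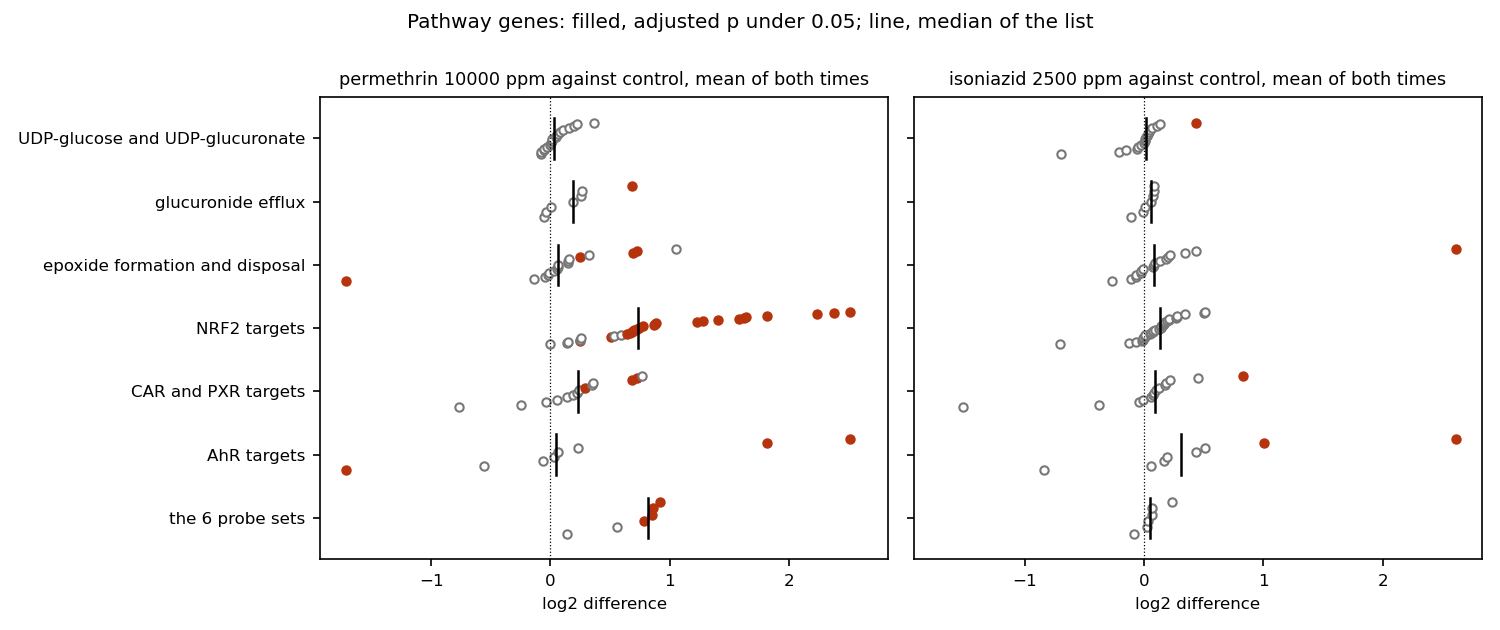
Log2 difference from control averaged over both times (horizontal axis) for each tested gene of 6 lists and for the 6 probe sets, at permethrin 10000 ppm (left) and isoniazid 2500 ppm (right). Filled points have an adjusted p below 0.05, vertical lines are list medians, and some genes stand in several lists. At 10000 ppm 23 of the 30 NRF2 genes and 4 of the 6 probe sets are filled, against 0 of either with isoniazid. Of all features 0.491% passed as higher at 10000 ppm, and 0.392% passed in either direction with isoniazid. The lists were chosen with earlier results of these data known.

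Ugt1a, Ugdh and Ephx1 are known targets of NRF2, the transcription factor that answers electrophiles, and Ugt1a and Ephx1 also of the receptors CAR and PXR. Of 30 other NRF2 targets tested, 11 passed as higher at 5000 ppm at either time, 21 at 10000 ppm and 7 days, and 16 at 10000 ppm and 14 days, with 0 lower. Their median differences were 0.49, 0.54, 0.77 and 0.78, and the medians over all features lay between -0.01 and 0.02. Of all features, 0.123% and 0.161% passed as higher at 5000 ppm at 7 and 14 days, and 0.253% and 0.23% at 10000 ppm. The list was chosen with earlier results of these data known, so its counts are not an independent test. Gsta2, a glutathione S-transferase, rose by 2.53 ± 0.21 at 10000 ppm and 7 days, Srxn1, which restores peroxiredoxins, by 1.60 ± 0.14, and Txnrd1, thioredoxin reductase, by 1.42 ± 0.14. With isoniazid 0 of the 30 passed at either time by limma, with 6 and 3 at an unadjusted p below 0.05 at 7 and 14 days.

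Of 14 other CAR and PXR targets, 1 and 3 passed as higher at 5000 and 10000 ppm at 7 days, and 2 and 3 at 14 days: Gstm1, Abcc3 and Aldh1a1, of which Gstm1 and Abcc3 also stand in the NRF2 list. Cyp2b10, the P450 most used as a readout of CAR, differed by 0.05 at 10000 ppm over both times and did not pass. With isoniazid 1 of the 14 passed at each time, Alas1, the first enzyme of heme synthesis, by 0.99 ± 0.13 and 0.67 ± 0.13. Of 8 other targets of the aryl hydrocarbon receptor, Nqo1 and Aldh3a1 rose under both permethrin doses at both times, and both also stand in the NRF2 list, while Cyp1a1 changed as given above. Of 11 targets of PPAR alpha, which regulates Ephx2 in some tissues, 0 passed in the comparisons with control at 1 time by limma, with 0 to 3 at an unadjusted p below 0.05 in a comparison. Whether NRF2, CAR, PXR, the aryl hydrocarbon receptor or PPAR alpha acted on the members was not tested.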

How the data were processed

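Lung RNA of 39 mice was measured on Affymetrix arrays, 1 per animal. The deposited values are signal intensity from MAS5 (version not stated), per the submitters' processing notes. The trimmed mean of each array was 100.0, and array medians ran from 17.4 to 26.2. Intensities were taken to log2 and quantile normalized. Each gene was represented by its brightest probe set with 1 symbol, the 3 Ugt1a probe sets were added, and features in the upper 60% of mean log2 signal (at least 3.43) were kept. Limma p-values set differences of group means against the spread between animals within groups. The permutation p-values of correlations shuffled all 39 animals across groups, so differences between groups enter them too. The number of arrays limits the precision.

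Group means were fitted to all arrays with limma 3.58.1 in R 4.3.3 (trended empirical Bayes), with 15 comparisons, two-sided p-values and Benjamini-Hochberg adjustment over 13023 features. The step was tested on simulated data. Tissue signals are mean log2 signals of marker genes, compared by exact permutation tests. The members and the 17 gene lists were chosen with earlier results of these data known. Named from the lists were up to 4 genes with the smallest p among those past the threshold in a comparison with control at 1 time, and other list genes were chosen after their values were seen. The 5 features most like Ephx1 and the brightest Ugt1a probe set were named too. Alternatives were other scalings, a pseudocount of 4, other filters, all probe sets, only the compared groups, the replicate block, array weights, tissue signals as covariates, leaving out arrays of high Gapdh ratio, and leaving out each animal.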

Additional observations from a re-analysis of the deposited data

Results flagged for a closer look

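For Ugt1a 1424783_a_at, isoniazid replicate 5 at 14 days read 9.29 in log2 signal and stood apart from the other 4 animals of its group, which read 8.93 to 9.02. It was 1 of 48 sets of animals examined, and chance marks about 1 in 20. The same animal was the lowest of its group for Ephx1 (9.01) and its array had a Gapdh 3′/5′ log2 ratio above 0.7.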

How the results depend on the processing

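The number of the 6 probe sets that passed changed by over 1.5 times in these cases, and the cause was not tested. With median centring it was 0 at 5000 ppm at 7 days and 0 at 14 days, in place of 4. With only the compared groups in the model it was 2 at 14 days at 5000 ppm and 2 at 10000 ppm. With hepatocyte and cardiac covariates it was 2 at 5000 ppm and 14 days. Leaving out 1 animal gave 2 to 4 at 5000 ppm and 14 days. With the replicate number as a block, 4 probe sets passed in each comparison of permethrin with control, as without it, and all 15 counts were the same. The labels give same-numbered animals no link beyond the number. Of 133 such pairs, 33 had deviations correlated above 0.1, with a range from -0.336 to 0.366. Pairs of unlike number were not examined, so these values cannot show whether the number marks a batch.

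Of 2430 values under alternatives, 97 changed sign, and 0 of these passed the threshold with or without the alternative. The sign changes larger than 1 SE, or of a value that passed, were 17. For Ephx2 they came with the hepatocyte and cardiac covariates and with the brown fat covariate, in that order: -0.10 and -0.12 at 5000 ppm and 14 days, -0.20 and -0.16 with isoniazid at 14 days, -0.0569 and -0.10 at 5000 ppm over both times, and -0.0160 and -0.15 with isoniazid over both times. They were -0.0873 and -0.0363 for the change of the 5000 ppm effect with time, and 0.13 and 0.0102 for 14-day against 7-day controls. With the first pair of covariates the change of the isoniazid effect with time was -0.36, and 1424783_a_at differed by 0.0858 between 14-day and 7-day controls. Without the arrays of high Gapdh ratio, 1426261_s_at differed by -0.13 with isoniazid at 14 days and by 0.0885 between the controls, and Ephx1 by 0.00396 with isoniazid over both times. Brown fat covariate values were chosen after seeing the data.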
